A study of Rattus norvegicus with 8 samples.

Results

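The cells described here were MHC class II-high, C1q-low cells of the rat spinal cord, chosen cell by cell from counts of unique molecular identifiers (UMIs, each standing for 1 captured RNA molecule). Among cells with at least 1000 UMIs and at most 10% of them from mitochondrial genes, those with at least 10 UMIs of RT1-Db1, at least 30 of Cd74, fewer than 10 of C1qa, C1qb and C1qc together, at most 2 of Siglech and 0 of Cd79b were kept. The rule left 1526 cells of 57296 filtered cells (2.66%, Wilson 95% interval 2.53 to 2.80%), out of 68658 deposited. RT1-Db1 and Cd74 set the rule, so their height in these cells is a description and not a finding.

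The study compared the spinal cord of 8-week rats after sham surgery and after a weight-drop contusion graded by the height of the fall, with 2 libraries in each group. The weight fell from 12.5 mm (mild), 25 mm (moderate) or 50 mm (severe) onto the exposed cord, sham animals had the cord exposed without a weight drop (entered as a height of 0), and a segment of cord was taken 7 days later, digested with enzymes and loaded on a 3′ droplet platform. The animals were female Wistar rats without a transgene. The study's text speaks of a separate spinal cord for each library, but the labels do not tie libraries to animals, and every p-value measures only the spread between these libraries.

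MHC class II molecules carry peptides to CD4 T cells, and Cd74 is the invariant chain that guides them through the cell. Conventional dendritic cells depend on the receptor Flt3. Their type 1 branch carries Clec9a, a receptor for dead cells, and the chemokine receptor Xcr1. Activated macrophages and monocyte-derived cells can also raise MHC class II, whereas C1q is made by microglia and many tissue macrophages. A gate on MHC class II without C1q can therefore hold several kinds of cell.

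A minority of the gated cells carried a UMI of Flt3 or Clec9a, and these counts do not settle what the other cells are. Flt3 had at least 1 UMI in 274 of the 1526 cells (17.96%, Wilson 95% interval 16.1 to 19.96%), and Clec9a in 185 (12.1%, 10.6 to 13.9%). Both genes were seen in 82 cells (5.37%), and 1149 cells (75.3%) had neither. At a median of 9340 UMIs per cell a gene of low level is easily missed, so these shares are of cells with a UMI and not of cells that express the gene. In cells that should lack them, the shares were lower. Flt3 was found in 0 of 3938 oligodendrocyte-type cells, which allows a share of up to 0.0762%, and Clec9a in 26 of them (0.660%), at a deeper median of 14294 UMIs. In 13240 C1q cells without RT1-Db1 (median 11511 UMIs), Flt3 was found in 0.204% and Clec9a in 0.181%. Macrophage genes were common among the gated cells. Csf1r, the receptor for macrophage colony-stimulating factor, had a UMI in 63.8%, the lysosomal protein gene Cd68 in 85.6%, and Gpnmb, a glycoprotein of lipid-laden macrophages, in 69.9%. Their levels, as UMIs per 1000000 in the summed cells of a library, averaged 202 ± 83.6 (SD, 7 libraries) for Csf1r, 696 ± 272 for Cd68 and 1831 ± 980 for Gpnmb, against 9.83 ± 10.97, 39.9 ± 41.9 and 166 ± 155 in oligodendrocyte-type cells (8 libraries). The cells are therefore called by their rule.

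The thresholds cut through continuous ranges. RT1-Db1 stood at 10 to 12 UMIs in 128 gated cells, and 172 cells that met the other limits had 7 to 9. Summed C1q stood at 7 to 9 UMIs in 36 gated cells and at 10 to 12 in 36 just outside, while 569 gated cells (37.3%) had none. Cd74 stood at 30 to 39 in 61 gated cells and at 20 to 29 in 26 outside. A doublet caller marked 8.72% of the gated cells, against 7.7% of filtered cells. Of the deposited barcodes, 555 occurred in more than 1 library, and 0 of these belonged to a gated cell. Sham replicate 1 stood apart, since 10 of its 24 gated cells had 3 or more UMIs of Ighm, the immunoglobulin mu chain gene, and its filtered cells had a median of 3487 UMIs against 8697 to 14073 in the other libraries.

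The gated cells were scarce in sham cord and made up 1.54 to 5.31% of filtered cells after injury. Sham replicate 1 held 24 of them (0.260% of 9234 filtered cells) and sham replicate 2 held 6 (0.227% of 2646). Mild replicate 1 held 398 (5.31% of 7496) and mild replicate 2 held 130 (1.54% of 8453). Moderate replicate 1 held 192 (1.77% of 10860) and moderate replicate 2 held 173 (2.66% of 6515). Severe replicate 1 held 202 (5.06% of 3991) and severe replicate 2 held 401 (4.95% of 8101). Both sham libraries lay below all 6 injured libraries, while mild replicate 1 lay above both severe libraries. The sham shares moved with the gate, to 0.565% and 0.328% when cells were first thinned to 3000 UMIs and to 0.801% and 0.265% at RT1-Db1 of at least 5 and Cd74 of at least 15.

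**Figure D1:**
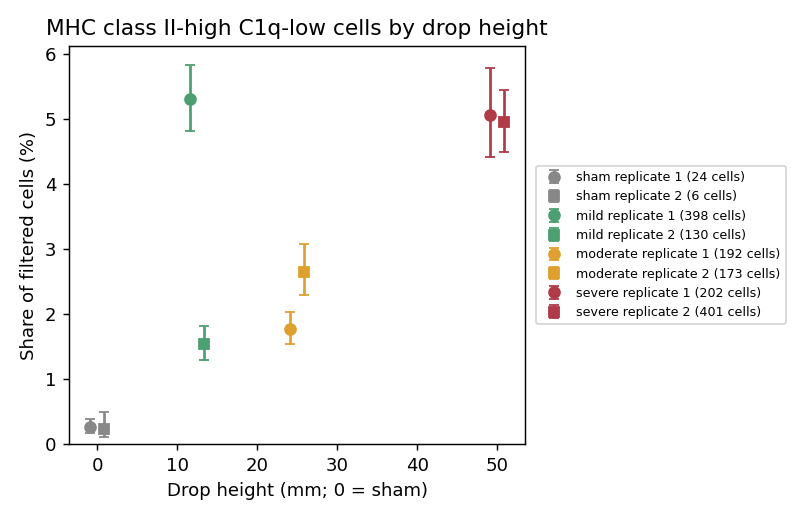
Share of filtered cells that met the MHC class II-high, C1q-low rule (%, y axis) against drop height (mm, x axis, 0 = sham) in each of the 8 libraries, with replicates set slightly apart sideways; bars are Wilson 95% intervals, which cover counting error only. The 2 sham libraries sit at 0.260 and 0.227%, and mild replicate 1, at 5.31%, stands far from mild replicate 2, at 1.54%.

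The share averaged 0.243% ± 0.023 (SD, n = 2) in sham, 3.42% ± 2.67 in mild, 2.21% ± 0.628 in moderate and 5.01% ± 0.0788 in severe libraries (n = 2 each). The mean was 3.30 percentage points higher over injured than over sham libraries (two-sided exact permutation test, p = 0.0714, which is the smallest that 2 against 6 libraries allow, and 0.206 after Benjamini-Hochberg adjustment over 5 relations). Over all 8 libraries Spearman's rho with drop height was 0.683 (exact permutation p = 0.0825, adjusted 0.206), and Pearson's r was 0.749 (exact permutation p = 0.0476, not adjusted), falling to 0.466 without the severe libraries. Within the 6 injured libraries rho was 0.239 (exact permutation p = 0.711, adjusted 0.978) and r was 0.508 (exact permutation p = 0.311), so no trend with height among injured cords was resolved. These values turned on single libraries. With a single library left out of the 8, rho was lowest, at 0.532, when that library was sham replicate 1 or sham replicate 2 (exact permutation p = 0.238 each). Without mild replicate 2 rho among the 5 other injured libraries was −0.105 (exact permutation p = 0.867). Without mild replicate 1 rho was 0.973 over 7 libraries (exact permutation p = 0.00317) and 0.949 over the 5 injured ones (exact permutation p = 0.0667).

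Counted against the other MHC class II cells, the balance also differed between sham and injured cord. Of cells with RT1-Db1 and Cd74 above the same limits, those with little C1q made up 26.1% and 6% in the sham libraries, 78.8% and 59.1% in mild, 68.3% and 74.2% in moderate, and 89.4% and 71.5% in severe. The sham and injured values did not overlap, and this ratio was given no test because C1q was part of the rule.

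Carriers of Flt3 and Clec9a were found in every library. Flt3 had a UMI in 4 of 24 and 1 of 6 gated cells in the sham libraries. It was seen in 52 (13.1%) and 24 (18.5%) cells of the mild libraries, 23 (11.98%) and 39 (22.5%) of the moderate, and 48 (23.8%) and 83 (20.7%) of the severe. Clec9a had a UMI in 3 and 2 cells of the sham libraries, 26 (6.53%) and 13 (10.0%) of the mild, 16 (8.33%) and 32 (18.5%) of the moderate, and 37 (18.3%) and 56 (14.0%) of the severe. The severe libraries were also the deepest, with medians of 11372 and 14433 UMIs per gated cell against 5707 to 7953 in the other injured libraries. With each cell thinned to 3000 UMIs, Flt3 was left in 5.06% and 6.4% (mild), 8.11% and 9.83% (moderate) and 7.61% and 5.66% (severe), and Clec9a in 2.28% and 8.00%, 7.57% and 11.6%, and 11.2% and 5.14%. After thinning, the moderate libraries lay above the mild and severe ones for Flt3, the mild and severe libraries overlapped, and for Clec9a the 3 groups overlapped. No test was made of these thinned shares. Summed over gated cells, Flt3 stood at 14.8 and 34.5 counts per 1000000 UMIs (CPM) in mild, 23.2 and 37.0 in moderate and 26.4 and 19.5 in severe libraries, with no order by height.

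The share of gated cells with 2 or more UMIs of Clec9a and Xcr1 together, after thinning, was 0.759% and 5.60% in mild, 4.32% and 5.2% in moderate, and 4.57% and 2.57% in severe libraries. It had a rho of −0.12 with height over the 6 injured libraries (exact permutation p = 0.844, adjusted 0.978), with r = 0.0195 (exact permutation p = 1.0). The same share for Ccr7 and Fscn1, genes of migrating mature dendritic cells, ran from 0 to 1.73%. Fscn1 alone can meet it and was seen more often in oligodendrocyte-type cells, so it is not a share of mature dendritic cells. The rho of this share with height was −0.061 (exact permutation p = 0.978, adjusted 0.978), with r = −0.21 (exact permutation p = 0.733). Both signs turned without thinning, to 0.598 (exact permutation p = 0.267) and 0.239 (exact permutation p = 0.711).

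The gated cells fell into several classes, drawn after their values had been seen. With 2 or more UMIs of Clec9a and Xcr1 together there were 148 cells (9.70%), and with 2 or more of Ccr7 and Fscn1 together there were 36 others (2.36%). Of the rest, 611 (40.04%) had at least 10 UMIs of Gpnmb per 10000 and are called Gpnmb-high, 45 (2.95%) had 3 or more UMIs of Ighm, and 686 (45.0%) remained. The Gpnmb limit cut a range, with 93 cells at 5 to 10 and 74 at 10 to 15 UMIs per 10000. Gpnmb-high cells were 0 of 24 and 0 of 6 in the sham libraries, 40.5% and 43.1% of gated cells in mild, 51.6% and 37.6% in moderate, and 27.2% and 43.6% in severe. Injured groups overlapped in this share. The 30 sham cells leave a wide margin, as the Wilson 95% interval for 0 of 24 reaches 13.8%.

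**Figure D2:**
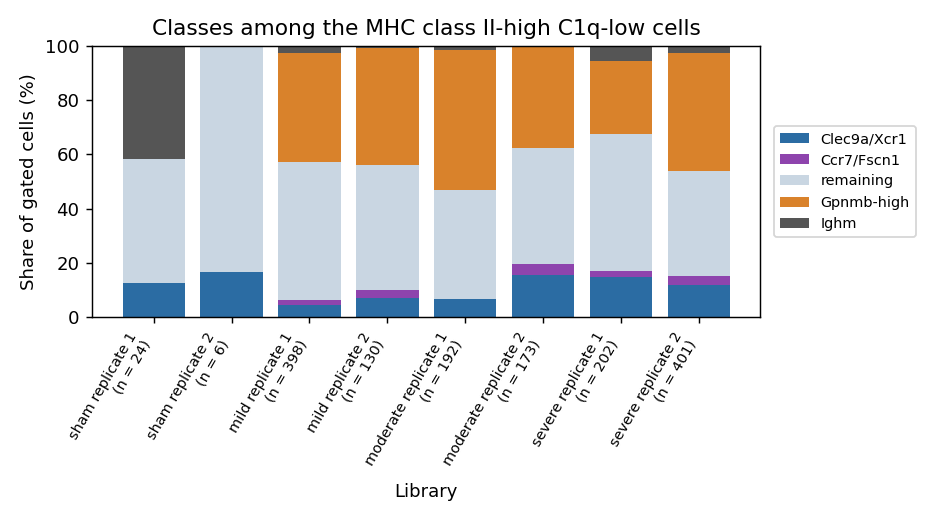
Share of gated cells in each class (%, stacked bars to 100) in each of the 8 libraries, with the number of gated cells under each bar. Gpnmb-high cells (orange) are at 0 in both sham libraries and at 27.2 to 51.6% in the injured ones, and cells with Ighm (dark grey) are 41.7% of sham replicate 1.

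Several dendritic cell genes and macrophage genes, picked after their values were seen, divided between these classes. Cd8a, another gene of the type 1 list, was instead higher in Gpnmb-high cells, at 298 CPM against 26.7 in remaining cells. The shares below are not thinned. Median depth was 12327 UMIs in the Clec9a/Xcr1 class, 12332 in Gpnmb-high cells and 7735 in remaining cells. Besides its own defining genes, the Clec9a/Xcr1 class had a UMI of Flt3 in 47.97% of cells and of Irf8, a transcription factor that type 1 dendritic cells need, in 91.2%. The adhesion gene Cadm1 was seen in 55.4% of them, Itgae, the CD103 integrin chain, in 77.7%, and Naaa, a lysosomal amidase, in 94.6%. Csf1r was seen in 9.46% and the efferocytosis receptor gene Mertk in none of these 148 cells. Gpnmb-high cells had Flt3 in 2.29%, Csf1r in 90.5%, Trem2, a lipid receptor of macrophages, in 82.7% and Mertk in 15.5%. The Ccr7/Fscn1 class had Il4i1, an amino acid oxidase of mature dendritic cells, in 75.0%, the chemokine gene Ccl22 in 47.2%, and the costimulatory genes Cd86 in 88.9%, Cd40 in 66.7% and Cd80 in 38.9%. The doublet caller marked 13.9% of the Ccr7/Fscn1 class, against 8.72% of all gated cells. Fscn1 is not particular to gated cells, as it had a UMI in 2.95% of them but in 25.7% of oligodendrocyte-type cells. Ccr7 was found in 4.06% of gated cells and in 0 of 3938 oligodendrocyte-type cells. The remaining 686 cells had Flt3 in 25.9%, Clec10a, a lectin of type 2 dendritic cells and macrophages, in 51.6%, Csf1r in 57.6% and Dpp4, a surface peptidase, in 29.2%. Flt3 was therefore not limited to the type 1 class, and 178 of its 274 carriers lay among the remaining cells. In the class with Ighm, the B cell gene Ms4a1 had a UMI in 17.8%.

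**Figure D3:**
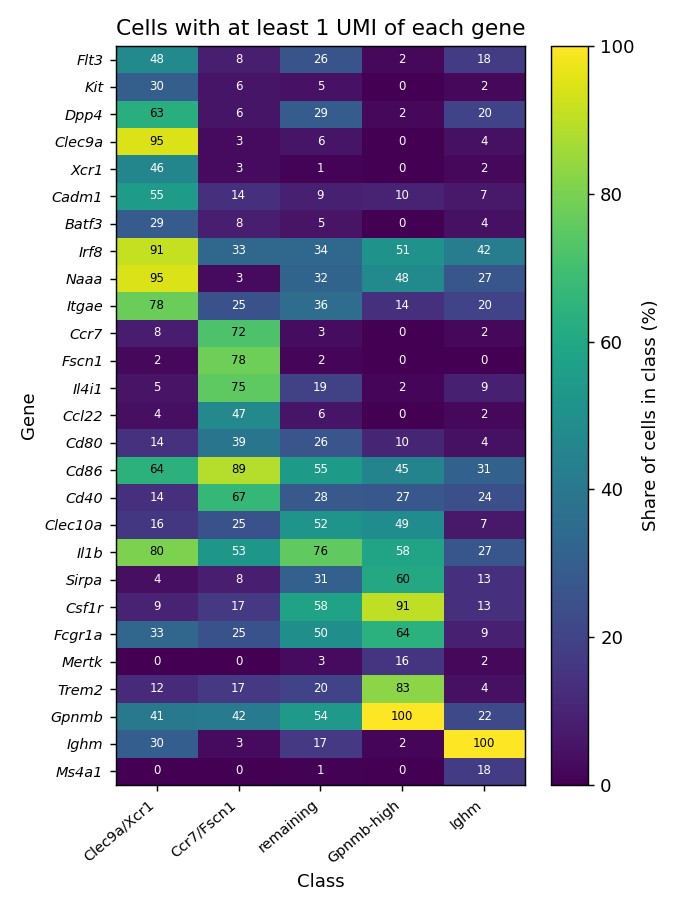
Share of cells with at least 1 UMI of each gene (colour and printed value, %) for 27 genes (rows) in the 5 classes (columns), over all libraries and without thinning. Flt3 is at 48% in the Clec9a/Xcr1 class, 26% in the remaining cells and 2% in Gpnmb-high cells, where Csf1r is at 91%.

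Levels within a library separated Gpnmb-high from remaining cells more widely. Over the 6 injured libraries, Apoe, which carries lipids, averaged 45329 CPM ± 15034 (SD) in Gpnmb-high cells and 2614 ± 1389 in the remaining cells. Napsa, an aspartic protease gene, averaged 269 CPM against 1517. RT1-Da, a class II alpha chain outside the rule, averaged 3364 CPM ± 810 in Gpnmb-high and 10150 ± 3231 in remaining cells. In the 3 libraries with at least 20 cells of the Clec9a/Xcr1 class it reached 19721 CPM ± 7416. Cst3, the protease inhibitor cystatin C, averaged 796 CPM in Gpnmb-high cells against 4538 in remaining cells. The classes were cut from these cells, so these differences have no test.

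The nearest comparison cells were 692 MHC class II cells with at least 10 UMIs of C1q. Among genes outside the rule, Slpi, a secreted protease inhibitor, was the most raised in the gated cells, at 3448 CPM ± 2216 against 348 ± 163 (mean ± SD, 7 libraries, higher in 7 of 7). Napsa (775 ± 97.2 against 146 ± 56.1), Cst7, the inhibitor cystatin F (239 ± 64.8 against 44.1 ± 22.4), Cytip, a regulator of leukocyte adhesion (237 ± 116 against 73.7 ± 53.4), and Lsp1, an actin-binding leukocyte protein (321 ± 143 against 101 ± 62.4), were also higher in each of the 7 libraries. Both kinds of cell met the same RT1-Db1 and Cd74 limits, and the rule split them by C1q. Other class II chains were higher in the gated cells in 7 of 7 libraries. RT1-Da was at 7155 ± 2649 against 2963 ± 1111, RT1-Ba at 3431 ± 598 against 1357 ± 366 and RT1-Bb at 1639 ± 880 against 754 ± 609. In the other direction, Anxa3 was at 61.4 ± 7.12 against 1037 ± 1140, the Fc receptor gene Fcgr3a at 26.7 ± 22.5 against 335 ± 293, the chemokine gene Ccl4 at 454 ± 648 against 1595 ± 1049 and Trem2 at 293 ± 181 against 708 ± 187, and these were lower in 7 of 7 libraries. The rule split the 2 kinds of cell, so no test was made.

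**Figure D4:**
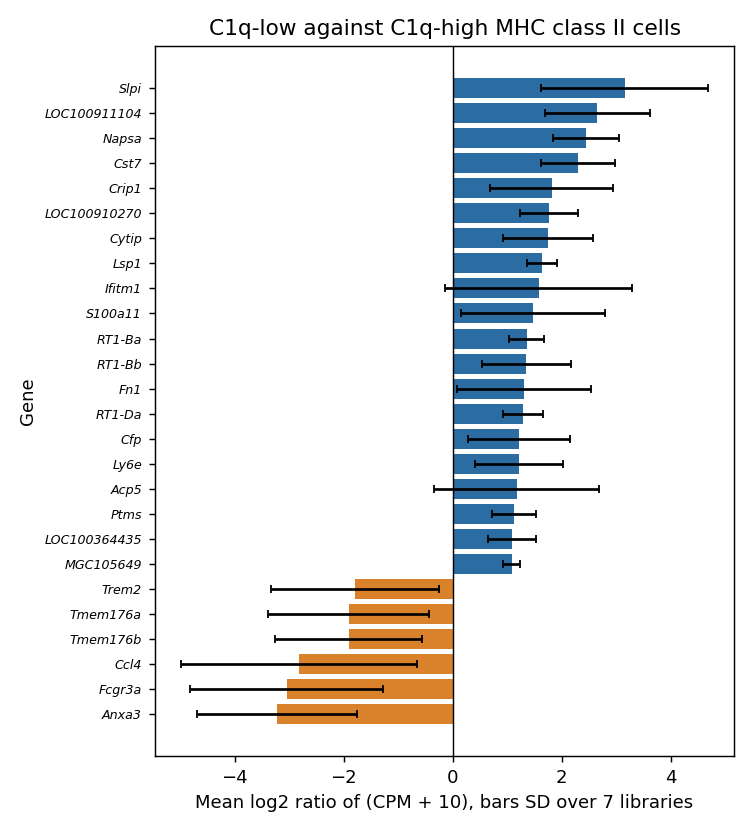
Mean log2 ratio of (CPM + 10) between the gated cells and MHC class II cells with C1q (x axis) for the 20 most raised and the 6 most lowered genes outside the rule (y axis), with bars for the SD over the 7 libraries that held at least 20 of both. Slpi is the highest, at 3.15, and Anxa3 the lowest, at −3.22.

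Between the injured groups, the gated cells of each library were summed and compared with edgeR's quasi-likelihood test over 9142 genes. Adjusted p-values below are from this test with Benjamini-Hochberg adjustment over these genes. Severe against mild gave 326 genes past an adjusted p of 0.05 (3.57% of genes tested), 222 higher (2.43%) and 104 lower (1.14%) in severe. The count was 31 without mild replicate 1, 37 without mild replicate 2 and 181 without severe replicate 1. Severe against moderate gave 133 (1.45%), 74 higher (0.809%) and 59 lower (0.645%). Moderate against mild gave 9 (0.0984%), 7 higher (0.0766%) and 2 lower (0.0219%). Scaling by library size without the TMM correction turned the split, to 129 higher of 439 for severe against mild and 66 higher of 409 for severe against moderate, and moved the median log2 change of all tested genes from −0.049 to −0.40 and from −0.057 to −0.45. Directions below are relative to the TMM scaling, and the list genes called between 2 groups kept their sign in 16 of 16 alternative settings. Most of these calls were lost in some settings, most often without a mild library, and Il1b (severe against moderate) and S100a9 (severe against mild) held in 16 of 16.

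The severe libraries also differed from the others in oligodendrocyte-type and C1q cells. Rps19, a ribosomal protein gene with near-identical copies in the genome, stood at 41.3 and 50.8 CPM in the gated cells of mild, 100 and 76.7 of moderate and 1570 and 1205 of severe libraries (severe against mild, log2 change 5.25 ± 0.34 SE, adjusted p = 0.000137). RGD1565131, a gene without an established name, stood at 83.0 and 99.8 CPM in mild, 114 and 135 in moderate and 0.376 and 0.460 in severe libraries, and at 42.8 and 45.9, 48.9 and 60.2, and 0 and 0.178 in oligodendrocyte-type cells. In the latter, Rps19 stood at 18.6 and 19.0, 30.9 and 30.8, and 318 and 403 CPM. Mt-co3, a mitochondrial gene, stood at 13195 and 10429, 9026 and 9683, and 1985 and 2269 CPM in the gated cells, and at 13758 and 12107, 12695 and 13355, and 3394 and 3166 in oligodendrocyte-type cells. Of the 222 genes higher in severe than mild, 62 (27.9%) were also at least 2-fold higher in oligodendrocyte-type cells and 137 (61.7%) in C1q cells without RT1-Db1, against 3.27% and 6.38% of all tested genes with a change of that size in the gated cells' direction. Of the 104 lower genes, 37 (35.6%) and 77 (74.0%) moved in the same way. The part of the library in these changes was not tested, and library and injury grade cannot be told apart with 2 libraries a group.

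**Figure D5:**
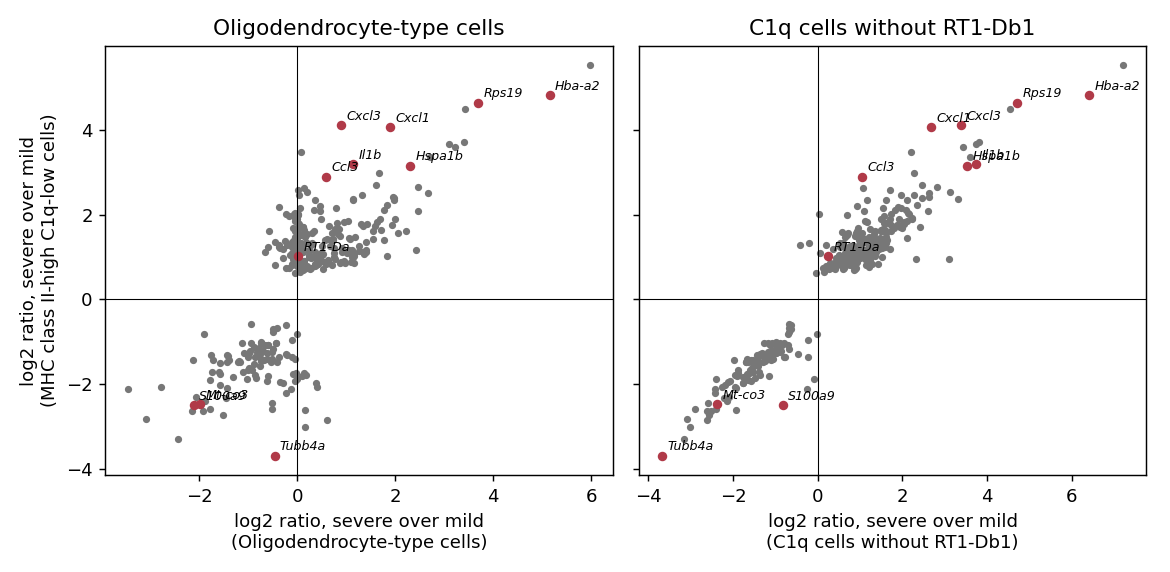
Log2 ratio of (mean CPM + 10), severe over mild, in the gated cells (y axes) against oligodendrocyte-type cells (left x axis) and C1q cells without RT1-Db1 (right x axis), for the 326 genes called between severe and mild; each point is 1 gene and red points are named. Rps19 and Mt-co3 moved in both comparison cell types, and RT1-Da is at 1.02 in the gated cells, whereas its level in oligodendrocyte-type cells, at most 4.64 CPM, is too low for a ratio to be read.

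Several cytokine and chemokine genes were called higher in the severe gated cells. Il1b, the gene of interleukin-1 beta, stood at 289 and 238 CPM in mild, 267 and 425 in moderate and 1882 and 3069 in severe libraries. The severe libraries did not overlap the others, and the log2 change was 3.59 ± 0.38 (SE) against mild (adjusted p = 0.00128) and 3.25 ± 0.37 against moderate (adjusted p = 0.00214). Its receptor antagonist Il1rn stood at 72.1 and 40.8, 92.1 and 87.3, and 229 and 267 CPM, a change of 2.46 ± 0.32 against mild (adjusted p = 0.00352). Cxcl1, a neutrophil attractant, stood at 324 and 224, 286 and 435, and 4004 and 5444 CPM and rose by 4.11 ± 0.36 from moderate to severe (adjusted p = 0.000665). Cxcl3, a related attractant, was at 8.15 and 6.35, 39.01 and 170, and 334 and 240 CPM, a change of 5.58 ± 0.63 against mild (adjusted p = 0.00171). In the 24 gated cells of sham replicate 1, Cxcl3 (1522 CPM) and Il1rn (428 CPM) were above both severe libraries, and in sham replicate 2 they were at 95.2 and 23.8 CPM. Ccl3 stood at 170 and 202, 630 and 509, and 756 and 2139 CPM, a change of 3.33 ± 0.50 against mild (adjusted p = 0.00764).

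Higher Il1b and Cxcl1 in severe libraries were also seen outside the gate. In C1q cells without RT1-Db1, Il1b stood at 198 and 203 CPM in mild, 225 and 457 in moderate and 2145 and 3471 in severe libraries, and Cxcl1 at 806 and 655, 484 and 1086, and 3614 and 5837. Ccl3 in those cells stood at 1248 and 926, 1149 and 2433, and 1232 and 3318 CPM, where severe overlapped mild. In oligodendrocyte-type cells Il1b was between 8.39 and 58.5 CPM across the injured libraries. Of 11 cytokine genes tested, 5 rose from mild to severe (Il1b, Il1rn, Il1a, Il23a and Ebi3) and 0 fell, with a median log2 change of 2.23 against −0.049 for all genes, of which 2.43% were called higher. Of 20 chemokine and chemokine receptor genes, 3 rose (Ccl3, Cxcl10 and Cxcr4) and 0 fell, with a median of 0.83. Cxcl1 and Cxcl3, described above, were not on this list and are not in its count. Il1a and Il23a averaged only 9.96 and 6.09 CPM over the 7 libraries fitted.

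From mild to severe, 1 gene each of the class II, class I and costimulation lists was called higher, beside 2.43% of all tested genes. RT1-Da stood at 4918 and 5505 CPM in mild, 6524 and 6333 in moderate and 12575 and 8516 in severe libraries, a change of 1.34 ± 0.28 (SE) from mild to severe (adjusted p = 0.0317). The 2 severe libraries lay above the other injured ones, while sham replicate 2, with 6 gated cells, was at 13065 CPM and sham replicate 1 at 5714. The call was lost when either mild library or severe replicate 1 was left out, at C1q under 3 UMIs, under library-size scaling and with a replicate block (edgeR adjusted p up to 0.314). In MHC class II cells with C1q it stood at 2418 and 1752 in mild, 3769 and 3183 in moderate and 4761 and 3188 in severe libraries. Of the 9 class II genes tested, 1 rose (RT1-Da) and 1 fell, RT1-Db2, which was at 14.6 CPM or less in each library. The list also holds Cd74 and RT1-Db1, which set the rule and are not read here. Of 9 class I genes, 1 rose, RT1-A2, a classical class I heavy chain, at 207 and 180, 381 and 483, and 372 and 963 CPM (2.16 ± 0.44, adjusted p = 0.0285). Its moderate and severe values overlapped. Of 9 costimulation and checkpoint genes, 1 rose, Cd40, at 24.9 and 18.1, 24.1 and 48.9, and 60.2 and 49.2 CPM (1.64 ± 0.35, adjusted p = 0.0324, past the threshold in 10 of 16 settings). Of the 12 antigen processing genes tested, 0 passed in either direction (median −0.0031), with the cathepsin D gene Ctsd at 825 to 4224 CPM over the injured libraries.

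Calls among genes that define dendritic cell branches were counted beside the 3.57% of all tested genes called from mild to severe, and in lists this short that background amounts to less than 1 gene. Of 10 conventional dendritic cell genes, 0 passed (median 0.55), and of 13 type 1 genes, 0 passed (median 0.31). Of 14 type 2 genes, 1 rose, which was Il1b. Of 15 mature dendritic cell genes, 2 rose, Birc3, an inhibitor of cell death, and Ebi3, a cytokine subunit. Birc3 passed in 10 of 16 settings and Ebi3 in 13. Irf8 stood at 160 and 144 CPM in mild, 194 and 203 in moderate and 111 and 69.3 in severe libraries. Among 14 genes of lipid-laden macrophages 0 passed (median 0.061), and of 16 macrophage genes 1 rose, Cd14, the endotoxin co-receptor, at 336 and 169, 240 and 376, and 698 and 614 CPM (1.71 ± 0.35, adjusted p = 0.0286, past the threshold in 10 of 16 settings). Of 17 cell cycle genes 0 passed (median −0.19). Of 18 interferon response genes 2 rose, Gbp5, a guanylate-binding protein, and Irf1, a transcription factor. Gbp5 was low, at 4.94 and 5.44 CPM in mild and 13.9 and 24.5 in severe libraries. It passed in 10 of 16 settings and Irf1 in 13. Of 11 plasmacytoid dendritic cell genes 1 fell, the transcription factor gene Tcf4 (past in 7 of 16 settings), and of 9 monocyte genes Cd14 rose and S100a9 fell. None passed among the tested genes of the microglia (6), B cell (7), plasma cell (3), T cell (6), cytotoxic cell (4), mast cell (1), astrocyte (4), endothelial (4) and fibroblast (7) lists, and no gene of the type 3 innate lymphoid or erythrocyte lists had enough counts to be tested. With the Gpnmb-high cells left out, 228 genes were called from mild to severe, 206 of them among the 326.

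Of the 7 genes called higher in moderate than mild cells, 4 had at least 50 CPM and no overlap, which were Hspa1b, Zfand2a, Bag3 and Hsph1. Of 19 genes on the stress list, 1, Hspa1b, passed (median 0.92), against 0.0984% of all tested genes. Hspa1b, an inducible chaperone gene, stood at 29.6 and 36.3 CPM in mild, 896 and 461 in moderate and 454 and 292 in severe libraries. In sham replicate 1 it was at 6665 CPM and in sham replicate 2 at 214. It rose by 4.35 ± 0.43 (SE) from mild to moderate (adjusted p = 0.00487), as did the co-chaperone genes Bag3 (2.74 ± 0.40, adjusted p = 0.0477) and Hsph1 (2.45 ± 0.32, adjusted p = 0.0360) and the stress gene Zfand2a (2.86 ± 0.28, adjusted p = 0.00487). Hspa1b stood at 48.3 and 32.0, 647 and 443, and 562 and 573 CPM in C1q cells without RT1-Db1. There, too, both moderate libraries lay above both mild ones. In oligodendrocyte-type cells it stood at 76.4 and 44.0 CPM in mild and 58.3 and 247 in moderate libraries, which overlapped. None of these 4 calls held when a single mild library, whichever it was, was left out, and 0 genes then passed. The 9 calls compare with 1439 genes at an unadjusted p under 0.05 and 75 calls by DESeq2. From mild to severe 3 of 19 stress genes rose, Hspa1b, Hspa8 and Ier3, and 0 fell (median 0.198), against 3.57% of all tested genes called in either direction. From moderate to severe that share was 1.45%. From moderate to severe, the immediate early genes Jun and Atf3 and the chaperone gene Hsp90aa1 fell, and Ier3, an early response gene, rose. Jun stood at 2264 and 1029 CPM in moderate and 260 and 340 in severe libraries (−2.08 ± 0.41, adjusted p = 0.0394). Of 16 alternative settings, Hspa8 (mild to severe) passed in 10, and from moderate to severe Hsp90aa1 passed in 6, Jun in 10, Atf3 in 11 and Ier3 in 13, with losses when single libraries were left out.

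A slope on log2 drop height over the 6 injured libraries was fitted over 8769 genes and called 141 (1.61%), of which 113 rose (1.29%) and 28 fell with height. Cxcl3 had the steepest rise among genes of at least 50 CPM whose groups did not overlap in TMM-scaled CPM, at 2.71 ± 0.36 (SE) log2 units per doubling of height (adjusted p = 0.00600). Sdc4, a heparan sulfate proteoglycan gene, rose by 2.10 ± 0.37 (adjusted p = 0.0206) and stood at 36.6 and 15.4, 49.0 and 303, and 343 and 436 CPM. Il1b rose by 1.81 per doubling (adjusted p = 0.0120). In C1q cells without RT1-Db1, Cxcl3 stood at 10.5 and 8.35, 15.6 and 78.3, and 190 and 200.3 CPM, and Sdc4 at 78.2 and 71.6, 97.03 and 414, and 314 and 448. Rps19, Rps6, Mt-atp8 and Mt-co3 were also among the 8 genes named by this rule. Of 14 alternative settings, the slope of Sdc4 passed in 10, Mt-atp8 in 11 and Mt-co3 in 6. The slopes of Cxcl3, Il1b, Rps19 and Rps6 passed in 14 of 14. In the CPM without TMM scaling printed here, Mt-atp8 overlapped between moderate (70.5 and 245) and severe (582 and 206) libraries.

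Some genes of other cell types differed between the injured groups of gated cells. All 10 oligodendrocyte genes were detected, and their summed level was 1420 and 2607 CPM in mild, 253 and 479 in moderate and 80.2 and 374 in severe libraries. Moderate and severe sums overlapped. Of these 10, Cnp and Cldn11 fell from mild to severe, where 1.14% of all tested genes were called lower. Tubb4a, a tubulin gene outside this list, at 130 and 346 CPM in mild and 1.51 and 17.2 in severe libraries, fell by 4.15 ± 0.93 (SE, adjusted p = 0.0400). Tubb4a and Cldn11 each passed in 10 of 16 alternative settings and Cnp in 12. In oligodendrocyte-type cells Tubb4a stood at 6007 and 5614 CPM in mild and 4337 and 4100 in severe libraries. S100a9, a calcium-binding protein of neutrophils, stood at 90.9 and 31.7, 18.3 and 11.9, and 3.39 and 1.99 CPM. It fell by 4.27 ± 0.54 from mild to severe (adjusted p = 0.00284). In sham replicate 1 it was at 3166 CPM and in sham replicate 2 at 0. The 12 neutrophil genes summed to 215 and 98.8, 83.0 and 124, and 38.8 and 35.3 CPM, with Ltf at 0. The hemoglobin gene Hba-a2, under the called 1 of its 2 gene identifiers, was at 587 CPM in severe replicate 2 and at 11.3 or less in the other injured libraries, and at 723 CPM in the oligodendrocyte-type cells of severe replicate 2. The 12 B cell genes summed to 645 CPM in sham replicate 1 and to 70.7 to 159 CPM in the injured libraries, with Cd79b at 0 by the rule. The genes AABR07060872.1 and AABR07034739.1, without established names, averaged 14.5 and 17.1 CPM in gated cells of the 6 injured libraries. In cells with 3 or more UMIs of Siglech they averaged 2081 and 1754. In gated cells both rose from moderate to severe (5.55 ± 0.50, adjusted p = 0.000665, and 9.03 ± 1.36, adjusted p = 0.0146). AABR07060872.1 fell from mild to moderate (−4.28 ± 0.55, adjusted p = 0.0329). The part of such RNA in the changes above was not tested.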

How the data were processed

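The 8 libraries of rat spinal cord (3′ droplet kit, version 3 chemistry) were read from deposited raw UMI counts of 32623 genes per cell barcode. The authors aligned reads to Rnor_6.0 with Cell Ranger, whose matrix headers give version 5.0.1; later steps of the authors, including Seurat, are not in these count files. Total UMIs were 31482153 to 131045446 per library.

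Cells were gated as stated in the report. Python 3.11.15, numpy 2.4.6 and scipy 1.17.1 were used. Doublets were scored with Scrublet in scanpy 1.11.5 and kept, and their removal (the top 7.7% of each library) was an alternative. Thinning drew 3000 UMIs from each cell and left out 37 shallower gated cells. Oligodendrocyte-type cells had at least 2 UMIs of Mog, 0 of RT1-Db1 and under 10 of C1q, and C1q cells without RT1-Db1 had at least 10 of C1q and 0 of RT1-Db1. CPM were computed from UMIs summed over cells. Intervals are Wilson 95%, and intervals and floors (3 counts) cover counting error only.

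Libraries with at least 20 gated cells were compared by edgeR 4.0.16 (R 4.3.3, with filterByExpr, TMM and glmQLFit), with 1 coefficient per group. Sham replicate 2 (6 cells) was therefore left out. Sham replicate 1 stayed in the fit but, alone in its group, gave no spread between replicates. The SE printed with a log2 change was derived from this test, as the size of the change divided by the square root of its F statistic. DESeq2 1.42.0 was an alternative. The fits were tested on simulated data. The drop heights come from the study's methods.

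Named genes were, for each comparison, up to 5 rises and 5 falls of largest log2 change with an adjusted p under 0.05, at least 50 CPM and groups without overlap in TMM-scaled CPM (printed CPM are not TMM-scaled), of which most without an established gene name are left out of the text; against C1q cells, the 20 and 10 of largest ratio with at least 200 CPM; and the most abundant genes of 30 lists. Genes that define or set apart the classes, and the named immediate early genes, were chosen after their values were seen. The members and lists were chosen with earlier results of these data known. Some list symbols are not analysed here, and some genes are not reported here.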

Additional observations from a re-analysis of the deposited data

How the results depend on the processing

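Depth and the low number of libraries limit these results, and sham cells (30) set the widest intervals. With gene calls resting on 2 libraries a group, either mild library could remove most calls. Over all 8 libraries the rho of 0.683 passed 0.05 in exact permutation tests at 0.878 (p = 0.0103) with at least 3000 UMIs per cell, with RT1-Db1 of at least 20 and Cd74 of at least 60, or with C1q under 3, at 0.830 (p = 0.0198) over cells with a Ptprc UMI, and at 0.781 (p = 0.0349) over deposited cells or with the gate applied after thinning. Leaving out 1 library gave 0.532 to 0.973 (exact permutation p = 0.00317 without mild replicate 1), and among injured libraries −0.105 to 0.949. For the Clec9a and Xcr1 share, rho was 0.598 without thinning and 0.359 at 1 UMI or more, and −0.738 to 0.316 with 1 library left out. For Ccr7 and Fscn1 it was 0.239 both without thinning and when thinned to 1000 UMIs, and −0.460 to 0.369 with 1 library left out. The cause was not tested. The sham difference was 1.91 to 5.15 points across its alternatives, and 1.91 without Gpnmb-high cells, an alternative added after seeing the data.

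Counts of calls moved by over 1.5 times as follows. For moderate against mild (9), DESeq2 called 75, no filter on low counts 458, a fit on the 2 groups alone 64, and leaving out 1 library 0 (either mild library) to 77 (severe replicate 2), with 75 without severe replicate 1, 22 without moderate replicate 1 and 3 without the sham library. For severe against moderate (133), DESeq2 called 211, library-size scaling 409, no filter 700, the 2 groups alone 61, and leaving out 1 library 58 (mild replicate 2) to 146, with 61, 62 and 76 without mild replicate 1 and the moderate libraries. For severe against mild (326), no filter called 1098, C1q under 3 called 177, and leaving out 1 library 31 (mild replicate 1) to 482, with 37 without mild replicate 2 and 181 without severe replicate 1. For the slope (141), DESeq2 called 413, library-size scaling 38, no filter 723, C1q under 3 called 70, no Gpnmb-high cells 67, and leaving out 1 library 36 (mild replicate 1) to 322 (moderate replicate 2), with 44 without mild replicate 2 and 52 without severe replicate 1. Of 512 values of named genes under alternatives, 446 kept direction and call, 66 kept direction and lost the call, and 0 reversed. The labels do not say whether replicate numbers pair libraries, and this was not tested. Deviations from group means correlated at 0.132, 0.257 and −0.063 across genes between the 3 pairs of groups. A replicate block called 71, 189, 532 and 203 genes in the 4 comparisons.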

Other observations

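Cycling cells were found in each larger class of the gated cells. With 2 or more UMIs of Mki67 and Top2a together, both genes of dividing cells, 75 of 1526 cells (4.91%) were counted, which were 9 of the Clec9a/Xcr1 class (6.08%), 35 of the Gpnmb-high class (5.73%) and 29 of the remaining cells (4.23%). The Clec9a/Xcr1 and Gpnmb-high classes had medians of 12327 and 12332 UMIs and the remaining cells 7735, so depth differs beside these shares, and no test was made.

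Cd8a, a T cell and type 1 dendritic cell gene in mice, had a UMI in 60.7% of Gpnmb-high cells and in 6.08% of the Clec9a/Xcr1 class. It averaged 298 CPM in Gpnmb-high and 26.7 CPM in remaining cells over 6 injured libraries, higher in 6 of 6. Ly6d, a lymphoid surface gene, went the other way, at 0.466 ± 0.722 (SD) in Gpnmb-high and 247 ± 277 CPM in remaining cells, a spread above the mean. These genes were chosen after their values were seen.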
